A study of Mus musculus with 16 samples.

Results

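The erythroid miRNAs followed here were miRNA-144-3p and miRNA-144-5p, miRNA-451a, and miRNA-486a-5p, which are 4 of the 1881 mouse miRNAs on the array and were chosen by name as miRNAs of red blood cells, with earlier results of these data known. They were measured in kidney cortex RNA of 16 male mice, 1 mouse per array, in 4 groups of 4. SAMR1-10wk and SAMR1-50wk mice were of the senescence-accelerated resistant strain, which serves as the control, at 10 and 50 weeks of age, and SAMP1-10wk and SAMP1-50wk mice were of the senescence-accelerated prone strain at the same ages. All were untreated and were kept on normal chow, and the strains are inbred lines that differ at many loci, so a strain difference is not that of 1 gene. The labels do not say whether blood was washed out of these kidneys before RNA was taken. The methods name a PBS reflux for the kidneys used in histology and for those of the nanoparticle delivery experiments. A whole piece of cortex was used, so a change in the number of cells of a type and a change in the RNA held by each cell cannot be told apart.

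Red blood cells lose their nucleus as they mature but keep a stock of small RNAs, in which miRNA-451a is dominant. miRNA-144 and miRNA-451a are cut from 1 transcript that the erythroid factor GATA1 switches on, and the miRNA-451a hairpin is unusual because it is cut by the Argonaute protein Ago2 and not by Dicer. miRNA-486a lies within Ank1, the gene of the red cell membrane protein ankyrin-1, and is also made in muscle. Tissue RNA therefore carries these miRNAs from the blood that remains in its vessels, and any made by the tissue's own cells adds to that.

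In the RefSeq annotation of GRCm38.p6, Mir144 lies at chr11:78073005-78073070 and Mir451a at chr11:78073170-78073241, both on the plus strand, with 99 bases between the hairpins. Both are non-coding miRNA genes outside the neighbouring protein-coding genes, and Mir451a ends 134 bases before the first base of Eral1. Mir451b is annotated over the same bases as Mir451a, on the opposite strand. Mir486 lies at chr8:23142555-23142682, inside the span of Ank1 at chr8:22974836-23150501, and Mir3107, the gene of miRNA-486b, lies within it at chr8:23142573-23142662. RefSeq held the mature sequence of 3 of the 4 miRNAs. They are shown 5′ to 3′ because they show that the miRNAs share a locus or a tissue but no seed, the stretch that pairs with targets; the seed, bases 2 to 8, is in capitals.

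mmu-miR-451a: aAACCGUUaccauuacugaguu
mmu-miR-144-3p: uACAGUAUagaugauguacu
mmu-miR-144-5p: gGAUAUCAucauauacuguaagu

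Each miRNA was read by 2 probes of 15 spots each. The probes of the miRNA-144 and miRNA-451a arms cover the mature miRNA from base 1 or 2 to its last base, and the capitals below mark the letters that pair with the seed. The probes deposited for miRNA-486a-5p are shorter, with 13 and 14 bases, and are shown without capitals. No separate probe was listed for miRNA-486b-5p, and probes this short may also bind it, so the values given for miRNA-486a-5p may be those of both.

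longer miRNA-451a probe: aactcagtaatggtAACGGTTt
longer miRNA-144-3p probe: agtacatcatctATACTGTa
longer miRNA-144-5p probe: acttacagtatatgaTGATATCc
shorter miRNA-486a-5p probe: ctcggggcagctc
longer miRNA-486a-5p probe: ctcggggcagctca

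Signals are given as the total gene signal, a background-subtracted intensity that the scanner software sums over the probes of a miRNA and lists at 0.1 where it called the miRNA not detected. For comparisons the signals of an array were divided by its 90th percentile and then raised to the lowest signal of a detected miRNA on the array (its floor), before log2 was taken. Between 352 and 445 miRNAs were detected per array, no spot was saturated, and limma was run on the 381 miRNAs that had been detected in every kidney of 1 group or more. Each slide held the 8 arrays of 1 age, so age and slide cannot be told apart. SAMR1 arrays lay in row 2 and SAMP1 arrays in row 1 of both slides, so strain and row cannot be told apart either. All 10 miRNAs listed as markers of kidney epithelium were detected on all 16 arrays, so the labelled tissue was not at odds with its markers. Nothing in the labels says that these arrays were technical repeats, and each was labelled as a different animal of its group.

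miRNA-451a, the most abundant miRNA of red blood cells, was detected on all 16 arrays. Its total gene signal was 837, 1576, 117 and 259 in SAMR1-10wk animals 1, 4, 5 and 7. It was 34.0, 33.7, 40.8 and 86.8 in SAMR1-50wk animals 2, 6, 9 and 12. It was 60.0, 112, 358 and 673 in SAMP1-10wk animals 3, 4, 5 and 6. In SAMP1-50wk animals 1, 2, 4 and 11 it was 2643, 1276, 446 and 1617. The SAMR1-50wk kidneys were all low, the SAMP1-50wk kidneys were all high, and the 10-week kidneys of both strains ran from low to high within 1 group.

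On the scaled log2 level, miRNA-451a was 9.81 ± 1.21 (SD, n = 4) in SAMP1-50wk and 9.02 ± 1.64 (SD, n = 4) in SAMR1-10wk. It was 7.60 ± 1.71 (SD, n = 4) in SAMP1-10wk and 5.80 ± 0.69 (SD, n = 4) in SAMR1-50wk. In this order each group overlapped its neighbours, so no 2 neighbours differed beyond the spread between their kidneys. SAMR1-50wk did not overlap SAMR1-10wk or SAMP1-50wk. From the lowest to the highest of the 16 kidneys the signal ranged 78.3-fold as deposited and 48.3-fold after scaling. miRNA-451a made up between 0.0314% and 1.73% of the summed signal of an array and ranked between the 8th and the 114th brightest miRNA.

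miRNA-144-3p, the 3′ arm of the miRNA-144 hairpin, was detected on 10 arrays. Its total gene signal was 40.6, 75.8, 2.46 and 11.5 in SAMR1-10wk animals 1, 4, 5 and 7, and it was not detected in any SAMR1-50wk kidney. In SAMP1-10wk it was not detected in animals 3 and 4 and was 16.1 and 30.7 in animals 5 and 6. In SAMP1-50wk animals 1, 2, 4 and 11 it was 112, 46.2, 17.3 and 71.7. The kidneys without a detected miRNA-144-3p were the 6 with the lowest scaled miRNA-451a, and SAMR1-10wk animal 5, next above them in miRNA-451a, had the lowest signal of a detected miRNA-144-3p.

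miRNA-144-5p, the other arm of that hairpin, was detected in 6 kidneys, which were SAMR1-10wk animals 1 and 4, SAMP1-10wk animal 6 and SAMP1-50wk animals 1, 2 and 11. Its signals there were 2.46, 4.71, 2.36, 10.8, 3.65 and 7.33. miRNA-486a-5p was detected in the same 6 kidneys, at 6.84, 12.8, 5.36, 20.2, 10.6 and 12.6. These were the 6 kidneys with the highest scaled miRNA-451a. Neither miRNA was detected on all 4 arrays of a group, so neither passed the filter, and 2 of the 4 erythroid miRNAs were tested. miRNA-144-3p passed only through the groups where it is high and so had to differ, and the members were chosen with these values known, so the tests of the 2 are given as descriptions only.

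**Figure D1:**
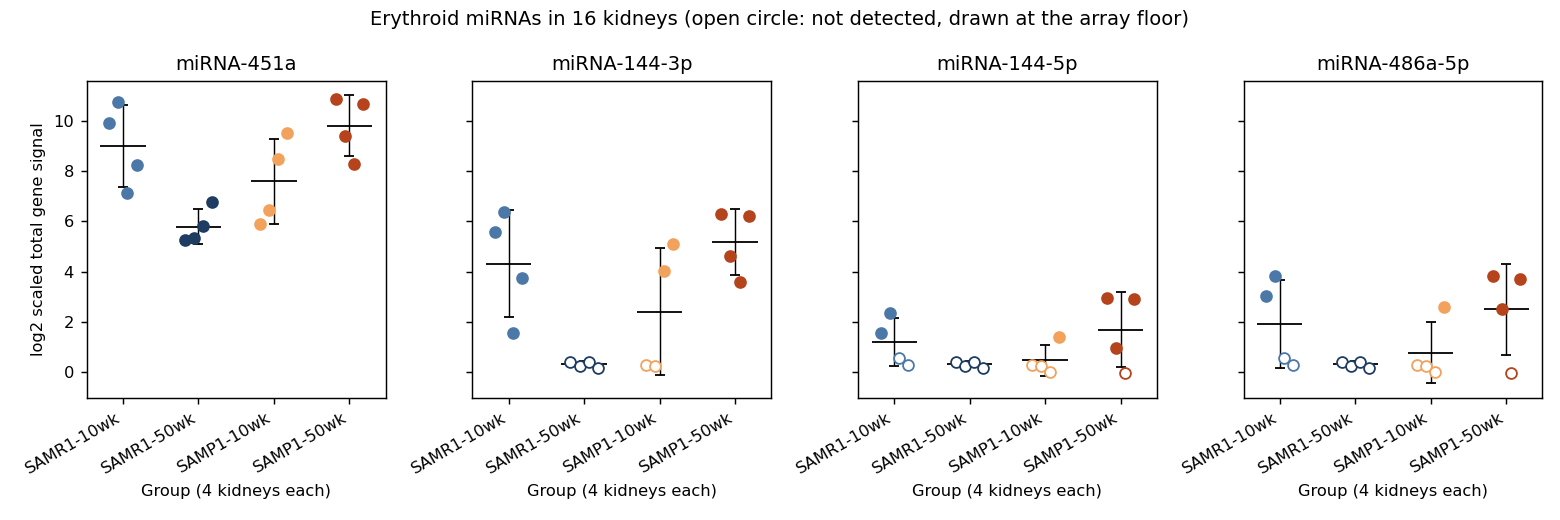
Log2 scaled total gene signal of the 4 erythroid miRNAs in each kidney, by group. Each circle is 1 kidney, open where the miRNA was not detected and drawn at the floor of the array, and lines and bars are the mean and SD of 4 kidneys. miRNA-451a lies between 5.27 and 6.77 in SAMR1-50wk, and between 8.28 and 10.87 in SAMP1-50wk, while SAMP1-10wk reaches into both ranges and SAMR1-10wk, from 7.13 to 10.75, into the upper one.

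The comparison of SAMP1-50wk with SAMR1-50wk asks how the prone strain differs from its control at the older age. miRNA-451a was 4.02 ± 0.91 (SE) higher on the log2 scale, or 16.2-fold, and the groups did not overlap. miRNA-144-3p was at least 17.5-fold higher, a lower bound that sets the mean of the 4 SAMP1-50wk kidneys against the SAMR1-50wk arrays, where it was not detected, each at its floor or at the signal of the probes' own spots if that was higher. miRNA-144-5p and miRNA-486a-5p were detected in 3 of 4 SAMP1-50wk kidneys and in no SAMR1-50wk kidney, and animal 4 of SAMP1-50wk, in which they were not detected, was also the lowest of its group in miRNA-451a and miRNA-144-3p. The median difference over the 4 miRNAs was 3.10, against -0.21 over all 381 miRNAs tested, and 0.715 with the normexp background correction, whose offset shrinks dim signals. Both tested members were called higher, that is, with an adjusted p under 0.05 and a fold over 2, where 4.46% of tested miRNAs were called higher and 5.77% in either direction; the members were chosen with this contrast known, and nothing is read from the count. Without SAMP1-50wk animal 4, all 4 members passed the filter and were called, of which miRNA-144-5p and miRNA-486a-5p then passed only through the group where they are high.

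At 10 weeks the strains overlapped in all 4 miRNAs. miRNA-451a was lower in SAMP1-10wk by a log2 difference of -1.42 ± 0.91 (SE), and miRNA-144-3p by -1.92 ± 1.18 (SE). For miRNA-144-3p, which was at the floor in SAMP1-10wk animals 3 and 4, the processed signal gave -1.49. Neither of these miRNAs was called, where 1.31% of tested miRNAs were called. The 3 brightest of these 8 kidneys in miRNA-451a were SAMR1-10wk animals 4 and 1 and SAMP1-10wk animal 6. Their other miRNAs followed, since these were the only 10-week kidneys with a detected miRNA-144-5p or miRNA-486a-5p.

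Between 10 and 50 weeks the differences of the 2 strains had opposite signs. In SAMR1 mice miRNA-451a was lower at 50 weeks by a log2 difference of -3.22 ± 0.91 (SE), or 9.33-fold, and the groups did not overlap. miRNA-144-3p was at least 9.64-fold lower by the same bound, from detection in 4 kidneys to detection in none. Both were called lower, where 0.525% of tested miRNAs were called lower, and no other miRNA was. These 2 calls were the least steady, since neither was made when any 1 of the SAMR1-50wk arrays or of SAMR1-10wk animals 1, 4 and 7 was left out, and 1 was made without SAMP1-50wk animal 1 or 11. Neither was made with the normexp background correction, quantile normalization, no scaling, no filter or the adjusted analysis of variance. The log2 difference of miRNA-451a lay between -3.85 and -2.64 when arrays were left out in turn.

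In SAMP1 mice miRNA-451a was higher at 50 weeks by 2.21 ± 0.91 (SE) on the log2 scale and miRNA-144-3p by 2.78 ± 1.18 (SE), with overlapping groups. For miRNA-144-3p, which was at the floor in 2 SAMP1-10wk kidneys, the processed signal gave 2.12. Neither was called, where 2.36% of tested miRNAs were called, and both were called without SAMP1-10wk animal 6 or without SAMP1-50wk animal 4. The difference between the age differences of the 2 strains, their interaction, was 5.44 ± 1.28 (SE) for miRNA-451a and 6.79 ± 1.66 (SE) for miRNA-144-3p. The latter rests on 6 kidneys at the floor, 4 of SAMR1-50wk and 2 of SAMP1-10wk, and was 5.62 by the processed signal, the mean of its spots. Both were called, where 2.62% of tested miRNAs were called, and neither was called with arrays scaled to the 75th percentile of miRNAs detected on all arrays or to miRNA-23a-3p. Across the strains and ages the median difference over the 4 miRNAs was -1.29 for strain at 10 weeks, -2.42 for age in SAMR1, 1.97 for age in SAMP1 and 4.39 for the interaction, with a pooled SD of 1.49 between the kidneys of a group. With the normexp background correction these medians were -0.341, -0.542, 0.514 and 1.06 in the same order.

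The processed signal, the mean background-subtracted intensity of the spots, has no detection limit and gives a value for the dim members on every array. By it SAMP1-50wk exceeded SAMR1-50wk by 16.1-fold in miRNA-451a, 17.5-fold in miRNA-144-3p, 5.24-fold in miRNA-144-5p and 7.63-fold in miRNA-486a-5p, all without overlap, where the groups of 4.2% of tested miRNAs did not overlap in that direction on the scaled total gene signal. In the same order they were 9.30-fold, 11.3-fold, 3.92-fold and 5.05-fold lower in SAMR1-50wk than in SAMR1-10wk, again without overlap, where 3.15% did not overlap in that direction. In SAMR1-50wk the processed signals of miRNA-144-5p, between 0.98 and 2.15, and of miRNA-486a-5p, between 1.37 and 2.12, were near the mean of 1.60 to 2.23 that the negative control spots had on these arrays. Set against the mean of the same array, miRNA-144-5p was above it on 1 of the 4 arrays and miRNA-486a-5p on 2, so the folds of these 2 miRNAs set a signal against background. miRNA-144-3p was not detected in SAMR1-50wk either. Its processed signals there, between 2.79 and 7.80, were above that mean but dim, so its folds are not exact.

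The levels of the 4 miRNAs varied together from kidney to kidney. On the log2 scale of the scaled processed signal, miRNA-451a had a Pearson's r of 0.996 with miRNA-144-3p, 0.976 with miRNA-144-5p and 0.986 with miRNA-486a-5p over the 16 arrays, and a Spearman's rho of 0.985, 0.988 and 0.985. Within groups, from the deviations from each group's mean, r was 0.992, 0.952 and 0.972. Without the 2 arrays farthest from the median of miRNA-451a it was 0.996, 0.975 and 0.989. On the scaled total gene signal, where undetected values lie at the floor, r was 0.978, 0.795 and 0.851 and rho was 0.906, 0.635 and 0.638. The miRNAs of 1 array share its RNA, labelling and scaling, and these values are descriptions.

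The likeness held in the ratio of the miRNAs as well as in their order. Over the 10 arrays where miRNA-144-3p was detected, the log2 ratio of its processed signal to that of miRNA-451a had an SD of 0.14. On the same arrays miRNA-451a itself had an SD of 1.34 and spanned 4.17 log2 units. Over the 6 arrays where miRNA-486a-5p was detected, the SD of its ratio was 0.050, and that of miRNA-144-5p was 0.14, against an SD of 0.63 for miRNA-451a on the same arrays. miRNA-486a-5p comes from another chromosome than the miRNA-144 and miRNA-451a locus, and its ratio to miRNA-451a varied less than that of either miRNA-144 arm, which was not tested.

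**Figure D2:**
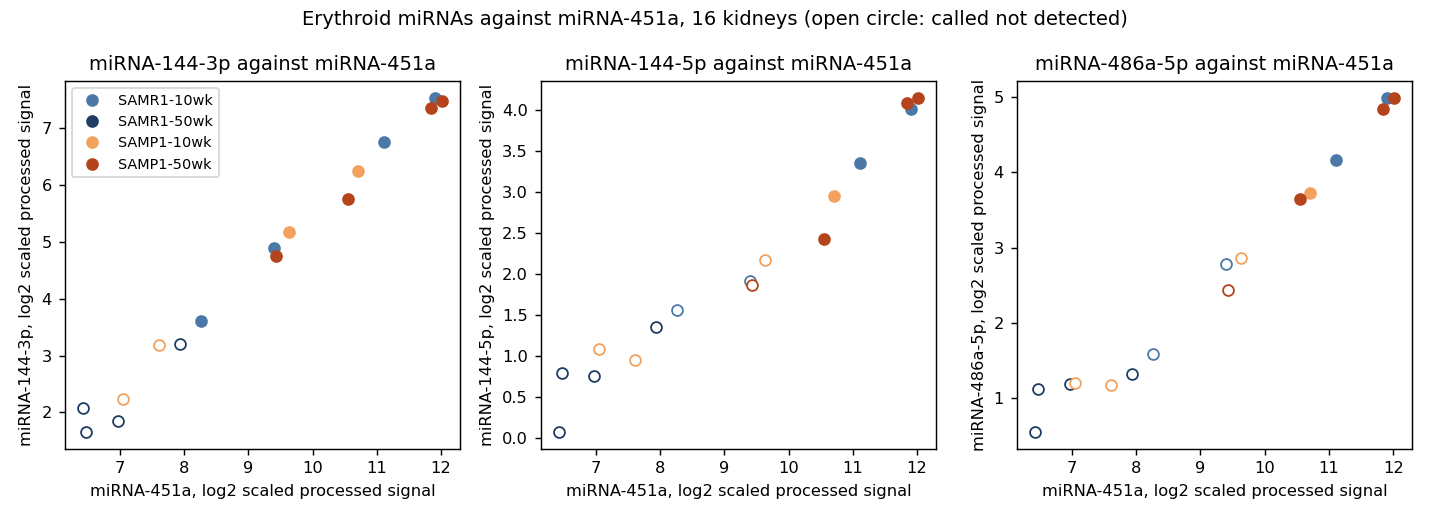
Log2 scaled processed signal of miRNA-144-3p, miRNA-144-5p and miRNA-486a-5p (y axes) against that of miRNA-451a (x axis), 1 circle per kidney, coloured by group and open where the miRNA was called not detected. Kidneys of all 4 groups lie along 1 line in each panel, with r between 0.976 and 0.996 over the 16 kidneys, and flatten at the low end where signals are near background.

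Kidneys of 1 group differed more in miRNA-144-3p and miRNA-451a than in any other miRNA tested. The pooled SD within groups was 1.78 log2 units for miRNA-144-3p and 1.37 for miRNA-451a, the highest and the next highest of 381, where the median was 0.17. miRNA-144-3p was detected on 10 of the 16 arrays and lay at the floor on the others, which enters its SD. By the processed signal its SD in a group was 0.69 to 1.82, and that of miRNA-451a was 0.70 to 1.71. Among the 322 miRNAs detected on all arrays, miRNA-451a was the most variable and miRNA-664-3p followed with 0.76. Between the brightest and the dimmest kidney of 1 group, scaled miRNA-451a differed 12.3-fold in SAMR1-10wk, 12.4-fold in SAMP1-10wk, 6.02-fold in SAMP1-50wk and 2.82-fold in SAMR1-50wk.

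The spread between spots of 1 array was smaller, and holds no error of RNA extraction, labelling or hybridization, which these data do not measure apart from the animals. The spots of 1 miRNA-451a probe on 1 array had a median SD of 0.056 and at most 0.18 on the log2 scale, and the median coefficient of variation between them was 3.85%. The 2 probes of miRNA-451a correlated with r of 1.00 over the 16 arrays, and their log2 ratio had an SD of 0.035. For the dimmer members the median coefficient of variation between spots was 13.0% for miRNA-144-3p, 51.4% for miRNA-486a-5p and 79.0% for miRNA-144-5p.

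**Figure D3:**
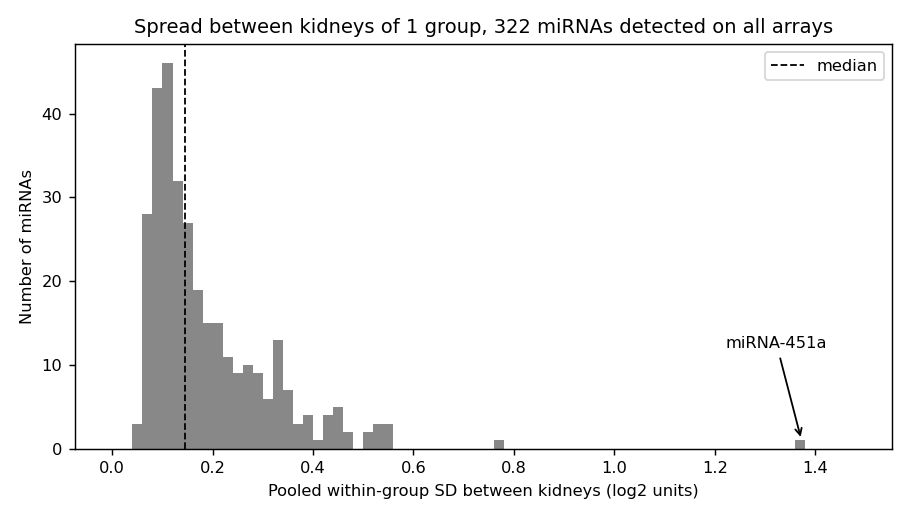
Histogram of the pooled SD between kidneys of 1 group, in log2 units, for the 322 miRNAs detected on all 16 arrays (y axis: number of miRNAs). The dashed line is the median, 0.14, and miRNA-451a lies alone at 1.37.

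Other miRNAs known from red cells and their precursors differed by less than 2-fold between the groups. Of a list of 11, 10 were on the array, 7 were tested and 3 (miRNA-486a-3p, miRNA-486b-3p and miRNA-451b) were detected on no array. The probe of miRNA-451b, from the strand opposite to miRNA-451a, thus stayed below detection also where miRNA-451a was bright. Over the 7 tested the median difference between SAMP1-50wk and SAMR1-50wk, -0.21, equalled that of all tested miRNAs. The 7 are miRNA-16-5p, miRNA-15a-5p, miRNA-92a-3p, miRNA-25-3p, miRNA-93-5p, miRNA-185-5p and miRNA-363-3p, all of which many cell types express. In limma none of them was called in the 5 comparisons, in which 1.31% to 5.77% of tested miRNAs were called, so a count of 0 of 7 lies near the background. By an adjusted p under 0.05 alone 3 of the 7 differed between the strains at 50 weeks, where 47.2% of tested miRNAs did, and 4 by an unadjusted p. miRNA-16-5p, which is abundant in red cells and is often used as a reference, ranged over 0.46 log2 units in all 16 kidneys. Its r with miRNA-451a was -0.22 over all arrays and 0.67 within groups, and that of miRNA-25-3p was 0.42 over all arrays and 0.80 within groups. The rest of the 7 had lower values, between -0.34 and -0.07 over all arrays for r and between 0.11 and 0.53 within groups.

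Markers of other blood cells moved with part of the pattern. Of 7 leukocyte miRNAs, which include the blood cell miRNA miRNA-142a and the lymphocyte miRNAs miRNA-150-5p and miRNA-155-5p, 5 were called higher in the prone strain at 50 weeks, where 4.46% of tested miRNAs were called higher. At 10 weeks 1 was called higher, where 1.31% were, and this was miRNA-342-3p, which is also among the 5 called at 50 weeks. miRNA-342-3p was detected in no SAMR1 kidney and passed the filter only through SAMP1, so it had to differ between the strains at both ages. With age in SAMP1 2 were called higher, where 1.84% were. Between the ages of SAMR1 none was called, where 1.31% were, and 1 had an adjusted p under 0.05 in limma, where 9.97% did. This was miRNA-155-5p, lower at 50 weeks by a log2 difference of -0.98, and the count by an unadjusted p was also 1. All were detected in SAMP1-50wk, and 6 of the 7 were detected on all 16 arrays. Their summed scaled signal was 359 to 562 in SAMP1-50wk, above the 177 to 227 of SAMR1-10wk, the 187 to 220 of SAMR1-50wk and the 189 to 249 of SAMP1-10wk. The summed signal of the 4 erythroid miRNAs was 323 to 1971 in SAMP1-50wk, 143 to 1828 in SAMR1-10wk, 38.7 to 109 in SAMR1-50wk and 60.1 to 789 in SAMP1-10wk. This sum is mostly miRNA-451a, which gave 1870 of the 1971 in SAMP1-50wk animal 1, and undetected members add nothing to it.

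The sums thus parted in SAMR1-10wk, where the erythroid sum reached the level of SAMP1-50wk and the leukocyte sum did not. Within SAMP1-50wk the kidney with the highest erythroid sum, animal 1, had the lowest leukocyte sum, 359, and animal 2 had the highest, 562. In SAMR1-10wk animals 4 and 1 had the highest sums of both lists, and in SAMP1-10wk animals 5 and 6 did. In SAMR1-50wk animal 2 had the highest leukocyte sum, 220, and the lowest erythroid sum, 38.7. Animal 12 of that group had the highest erythroid sum, 109. The 2 endothelial miRNAs, with a sum between 939 and 1298, and the 10 kidney epithelial miRNAs, with a sum between 5252 and 6594, held no call in any comparison, which is near the background share of 1.31% to 5.77% for lists of this size. By p under 0.05 in limma, adjusted or not, 1 of the 2 and 5 of the 10 differed between the strains at 50 weeks, where 47.2% of tested miRNAs did by the adjusted p, all by less than 2-fold. In the interaction 2 of the 2 and 8 of the 10 had an adjusted p under 0.05, where 26.8% did. The differences of both lists lay between -0.43 and -0.16, with a median of -0.38 for kidney epithelium and -0.33 for endothelium. The median of all tested miRNAs was -0.25. It moved by 0.24 with arrays scaled to the 90th percentile of miRNAs detected on all arrays. The sign of the smallest differences thus depends on the scaling. The part of blood cells other than red cells, or of cells of the kidney, in the erythroid values was not tested.

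**Figure D4:**
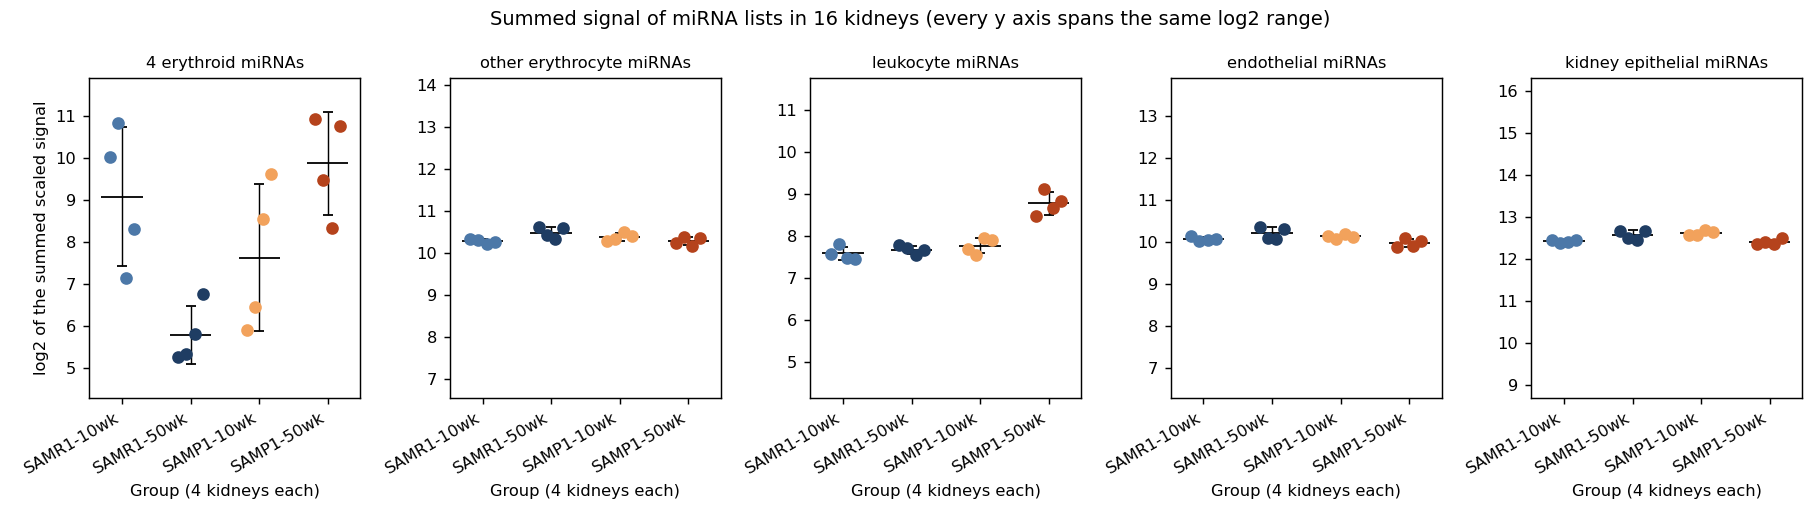
Log2 of the summed scaled signal of 5 lists of miRNAs in each kidney, by group, with the mean and SD of 4 kidneys; each y axis spans the same number of log2 units. The erythroid sum, which is mostly miRNA-451a, spreads from 38.7 to 1971. The leukocyte sum of each SAMP1-50wk kidney lies above those of the other 12 kidneys, and the other 3 sums keep within narrow bands.

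The miRNAs most like miRNA-451a over the 16 kidneys, among the other 321 detected on all arrays, were miRNA-150-5p (r = 0.66), miRNA-142a-5p (0.60), miRNA-15b-5p (0.59), miRNA-142a-3p (0.58), miRNA-155-5p (0.57), miRNA-18a-5p (0.56), miRNA-744-5p (0.46) and miRNA-25-3p (0.42). These values are on the scaled total gene signal, on which the erythroid miRNAs had an r of 0.98, 0.80 and 0.85 with miRNA-451a, and 6 of the 321 exceeded 0.5. The median r was -0.31 on the scaled values, which share each array's scaling. Within groups the most alike were miRNA-191-3p (r = 0.89), miRNA-25-3p (0.80), miRNA-106b-5p (0.73), miRNA-664-3p (0.70) and miRNA-142a-5p (0.69), where the median was 0.11. The order of these lists depended on the scaling, since miRNA-25-3p had an r of 0.81 with arrays scaled to the percentile of miRNAs detected on all arrays.

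On the scaled total gene signal the slope on miRNA-451a was 1.23 for miRNA-144-3p, 0.40 for miRNA-144-5p and 0.66 for miRNA-486a-5p, and on the processed signal it was 1.05, 0.63 and 0.77. On the former scale, for 1 log2 unit of miRNA-451a, miRNA-142a-5p rose by 0.24, miRNA-142a-3p by 0.21, miRNA-150-5p by 0.16 and miRNA-25-3p by 0.023 log2 units over the 16 kidneys. The most opposed were let-7e-5p (r = -0.73), miRNA-30c-2-3p (-0.70), let-7a-5p (-0.69), miRNA-30a-3p (-0.66) and miRNA-99b-5p (-0.65), with slopes between -0.067 and -0.037. Within groups their r lay between -0.20 and 0.23. The reference miRNAs miRNA-423-5p and miRNA-23a-3p had an r of -0.44 and -0.40 with miRNA-451a and ranged over 0.26 and 0.33 log2 units.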

How the data were processed

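Cy3-labelled RNA of kidney cortex was measured on 1-colour arrays. The authors deposited the scanner output of Agilent Feature Extraction 12.0.3.1, in which intensity values are background-subtracted and not scaled between arrays, and a value table in log2 units relative to SAMR1-10wk, which was used as an alternative only. The software set total gene signals of undetected miRNAs to 0.1 and left undetected probes out of the total. From these intensities total gene signals were divided by the 90th percentile of the 1881 miRNAs of the array and multiplied by the geometric mean of these percentiles, 12.0, and floors, between 0.895 and 1.50 before scaling, were applied. Groups came from the labels. limma 3.58.1 in R 4.3.3 fitted 1 mean per group with Benjamini-Hochberg adjustment, and a call needed an adjusted p under 0.05 with a difference of over 2-fold. Files were read with Python 3.11.15, pandas 2.3.3 and numpy 2.4.6, and figures were drawn with matplotlib 3.10.9. The processed signal was raised to 1 before log2. Precision is limited by the 4 arrays of a group.

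The members, lists and comparisons were chosen with earlier results of these data known. The lists were other miRNAs of red cells, and miRNAs of leukocytes, endothelium and kidney epithelium. Named beside the members were miRNAs of these lists, 3 reference miRNAs, the 8 highest and 5 lowest correlations with miRNA-451a and the 5 highest within groups. miRNA-664-3p is also named for its spread, seen in the data. The fit was tested on simulated data. Alternatives were other signals, background corrections, scalings, floors and filters, the methods' two-way analysis of variance, the slides fitted separately, a block on animal number, and leaving out arrays in turn.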

Additional observations from a re-analysis of the deposited data

Results flagged for a closer look

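By the interaction of strain and age in limma, the signed difference of 50 minus 10 weeks in SAMP1, minus that in SAMR1, was 5.44 log2 units for miRNA-451a and 6.79 for miRNA-144-3p. The latter was 5.62 by the processed signal, since miRNA-144-3p was at the floor in all 4 SAMR1-50wk and 2 SAMP1-10wk kidneys. The age differences behind it were 2.21 in SAMP1, which was not called and where the ages overlapped, and -3.22 in SAMR1 for miRNA-451a. For miRNA-144-3p they were 2.12 in SAMP1 and -3.50 in SAMR1 by the processed signal. The value in SAMR1 is not exact, since miRNA-144-3p was detected in no SAMR1-50wk kidney. The interaction was positive for all 7 leukocyte miRNAs and was called for 3 of them, where 2.62% of tested miRNAs were called, at 1.27 for miRNA-142a-3p, 1.36 for miRNA-142a-5p and 1.32 for miRNA-155-5p. miRNA-486a-5p in SAMP1-10wk had 1 kidney apart from the other 3, with a gap of 0.891 of the range of the group (above Dixon's critical value for 4 samples). This was animal 6, the only one of its group with a detected miRNA-486a-5p, and the other 3 lay at the floor, which sets the gap. By the processed signal the gap was 0.339 of the range, under that value. About 1 in 20 groups is singled out in this way by chance.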

How the results depend on the processing

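All 710 differences recomputed for the 4 miRNAs and their median under the alternatives kept their sign. With the normexp correction, whose offset shrinks dim signals, the median difference was 0.715 between SAMP1-50wk and SAMR1-50wk, -0.542 between SAMR1-50wk and SAMR1-10wk and 1.06 for the interaction, and 0 and 1 members were called in the last 2. The median of the interaction was 6.05 with signals as deposited and 6.09 with the authors' values. For SAMR1-50wk against SAMR1-10wk, 0 members were called with quantile normalization, no scaling, no scaling at 1 feature size (added after seeing the data), no filter or the adjusted analysis of variance, and 1 with the 75th percentile, a common floor, the authors' values or detection on all 16 arrays, where 1 member was tested. For the interaction 0 members were called with the 75th percentile or miRNA-23a-3p scaling and 1 with 1 feature size, no filter or detection on all arrays. For SAMP1-50wk against SAMR1-50wk, 4 were called of 4 tested with no filter and 1 of 1 with detection on all arrays. For SAMP1-50wk against SAMP1-10wk, 3 were called with no filter and 2 by the unadjusted analysis of variance. No scaling raised the median of all tested miRNAs by 0.78 between the strains at 50 weeks. The correlations with miRNA-451a moved upward by the processed signal, to 0.996, 0.976 and 0.986 from 0.978, 0.795 and 0.851. Other causes were not tested.

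With arrays left out in turn, the median difference lay between 2.70 and 3.78 for strain at 50 weeks, -1.91 and -0.68 at 10 weeks, -2.96 and -1.81 for age in SAMR1, 1.57 and 2.65 for age in SAMP1, and 3.79 and 5.07 for the interaction. The members called numbered 2 to 4, 0 to 0, 0 to 2, 0 to 2 and 2 to 4. Animal numbers did not pair the samples, since residuals of equal numbers correlated between -0.43 and 0.21; with the replicate block the median difference at 50 weeks was 2.79 and 2 members were called.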

Other observations

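Per the file headers, the total gene signal used a default feature size fraction of 0.6 on 12 arrays and a measured one between 0.759 and 0.770 on the other 4, which were SAMP1-10wk animal 4 and SAMP1-50wk animals 1, 2 and 4. The ratio of total to processed signal was 0.424 on the 12 arrays and 0.537 to 0.544 on these 4. Scaling removes such a constant, and total gene signals as deposited keep it. The headers also set probes called not detected to be left out of the total. In SAMR1-10wk animal 5 the log2 difference of miRNA-144-3p from SAMR1-10wk animal 7 was larger by total gene signal (1.56 against 3.75) than by processed signal (3.61 against 4.89).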
